A study of Mus musculus with 8 samples.

Results

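Decorin (Dcn), biglycan (Bgn), asporin (Aspn), lumican (Lum), fibromodulin (Fmod), Prelp, osteoglycin (Ogn) and versican (Vcan) are matrix proteoglycans, chosen by symbol as a family, with earlier results of these data known. They are 8 of the 30495 genes in the deposited count table, and all 8 were among the 19083 genes that passed the filter on low counts. Right ventricles of 8-week-old female mice were sequenced as bulk poly(A) RNA in 8 libraries, 2 for each of 4 groups. Fpr2-KO SuHx and WT SuHx mice were given Sugen, a VEGF receptor inhibitor, at 20 mg/kg and lived in hypoxia for 21 days. Fpr2-KO control and WT control mice lived at normal oxygen for 21 days. Fpr2 encodes formyl peptide receptor 2, and the series asks about the receptor in pulmonary hypertension and in how right ventricular function differs by sex. How the deletion was made, and whether it spares any cell type, is not given in the sources used here. Whether each sample is its own animal is not in the labels, and a p-value here speaks for the spread between libraries, which could be technical. Library numbers are those of the count columns, and in 3 groups they differ from the numbers in the sample titles.

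Small leucine-rich proteoglycans are secreted proteins whose curved leucine-rich repeats bind collagen fibrils and help to set the width and spacing of the fibrils. Decorin, biglycan and asporin form the first class of the family, lumican, fibromodulin and Prelp the second and osteoglycin the third, and decorin and biglycan also bind TGF-beta and carry chondroitin or dermatan sulfate chains. Versican belongs to the large proteoglycans, which bind hyaluronan and fill the space between cells. In the heart these genes are known mainly from fibroblasts, vessel walls and valves.

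Aspn and Ogn lie near each other on chromosome 13, with another small leucine-rich gene, Omd, between them. Promoter sequences are shown as examples for 4 of the 6 genes with an entry: Aspn, Ogn and Bgn, which rose with SuHx averaged over genotypes, and the large proteoglycan Vcan. Each is the 250 bases before the RefSeq start of the gene, 5′ to 3′ on the strand of the gene, in build GRCm38.p6, at chr13:49544193-49544442 (plus strand, Aspn), chr13:49607765-49608014 (plus strand, Ogn), chrX:73483351-73483600 (plus strand, Bgn) and chr13:89742513-89742762 (minus strand, Vcan). Capitals mark matches, on either strand, to 6 short motifs: the TATA box as TATAAA, the CCAAT box as CCAAT, the GC box as GGGCGG, the AP-1 site as TGANTCA, the SMAD motif as CAGAC and the TEAD motif as GGAATG.
Aspn: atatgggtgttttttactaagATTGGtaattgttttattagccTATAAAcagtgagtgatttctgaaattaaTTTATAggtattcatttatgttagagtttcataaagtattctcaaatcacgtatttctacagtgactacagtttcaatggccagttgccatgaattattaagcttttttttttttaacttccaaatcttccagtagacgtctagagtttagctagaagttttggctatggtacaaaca
Ogn: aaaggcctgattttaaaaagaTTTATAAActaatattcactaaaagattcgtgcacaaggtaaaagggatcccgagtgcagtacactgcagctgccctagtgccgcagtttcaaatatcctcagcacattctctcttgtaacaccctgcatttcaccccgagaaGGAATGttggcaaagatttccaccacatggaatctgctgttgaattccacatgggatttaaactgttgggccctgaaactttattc
Bgn: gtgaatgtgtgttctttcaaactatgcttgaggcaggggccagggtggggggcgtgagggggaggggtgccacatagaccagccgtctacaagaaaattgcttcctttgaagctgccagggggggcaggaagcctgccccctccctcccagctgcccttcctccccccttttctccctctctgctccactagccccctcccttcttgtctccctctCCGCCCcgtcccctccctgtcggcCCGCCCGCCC
Vcan: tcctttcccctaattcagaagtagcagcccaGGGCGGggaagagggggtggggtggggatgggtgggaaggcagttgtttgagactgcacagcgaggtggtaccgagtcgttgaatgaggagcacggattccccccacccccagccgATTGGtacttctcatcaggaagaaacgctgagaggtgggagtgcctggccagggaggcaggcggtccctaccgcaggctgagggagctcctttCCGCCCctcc

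The Aspn window held 2 TATAAA and 1 CCAAT match and was 30.0% G or C. The Ogn window held 2 TATAAA matches, which overlap as TTTATAAA, and 1 GGAATG match, at 42.0% G or C. The Bgn window held 3 GGGCGG matches, of which the 2 nearest to the start overlap, at 64.4% G or C. The Vcan window held 2 GGGCGG matches and 1 CCAAT match, at 62.4% G or C. The median over all promoter windows was 52.4%. Of 32536 windows of this length, 12.3% held TATAAA, 33.8% CCAAT, 33.0% GGGCGG, 6.7% TGANTCA, 42.2% CAGAC and 12.6% GGAATG. The table of promoters held 6 of the 8 genes, Dcn and Lum not among them. The windows of Prelp (1 CCAAT and 1 CAGAC match) and Fmod (2 CAGAC matches) are not printed. These matches describe letters and not factor binding, which was not measured.

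Libraries held 67965311 to 76292772 counts, of which mitochondrially coded genes took 24.2% to 28.2% and the 8 proteoglycans 0.101% to 0.152%. Fpr2 had 0 counts in all 4 Fpr2-KO libraries, 12 and 12 in WT SuHx and 19 and 23 in WT control, which matches the genotype in the sample titles. Myl2, the ventricular myosin light chain, was at 2119 to 3590 CPM in every library. CPM here is a count relative to the TMM-scaled size of its library, in edgeR's usual unit. The summed level of 8 atrial muscle genes was 2814 CPM in Fpr2-KO SuHx library 2, against 61.7 to 370 CPM in the other 7 libraries, so that library stands apart. The 370 CPM was in WT control library 2, and the next highest level was 151 CPM in WT control library 1. Calls of the 8 proteoglycan genes that rest on Fpr2-KO SuHx library 2 are given with and without it.

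Decorin, which binds and regulates type I collagen fibrils, was the most abundant of the 8 transcripts per length in every library. Levels of different genes are compared as CPM per kb, which divides CPM by the summed length of all annotated exons of the gene. On that scale Dcn was at 124 and 114 CPM per kb in the Fpr2-KO SuHx libraries, 139 and 141 in Fpr2-KO control, 85.4 and 89.7 in WT SuHx and 143 and 154 in WT control. Ogn, Bgn and Lum took the second to the fourth place in every library. Ogn was second in all but the Fpr2-KO SuHx libraries, where Lum was second at 61.2 and 63.5 CPM per kb, ahead of Ogn at 52.5 and 56.2 CPM per kb. Bgn and Lum changed places within the WT SuHx group and so were not separated there. Aspn and Prelp followed and changed places within the WT SuHx and Fpr2-KO control groups. Vcan, at 0.496 to 1.09 CPM per kb, and Fmod, at 0.176 to 1.64 CPM per kb, were lowest in every library. The rank of Bgn depends on the length taken: its exons add up to 6099 bases but its longest transcript is 2666 bases, and with the longest transcripts Bgn was second in every library. The CPM per kb of all 8 genes added up to 324 and 323 in the Fpr2-KO SuHx libraries, 248 and 238 in Fpr2-KO control, 247 and 261 in WT SuHx and 204 and 247 in WT control.

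**Figure D1:**
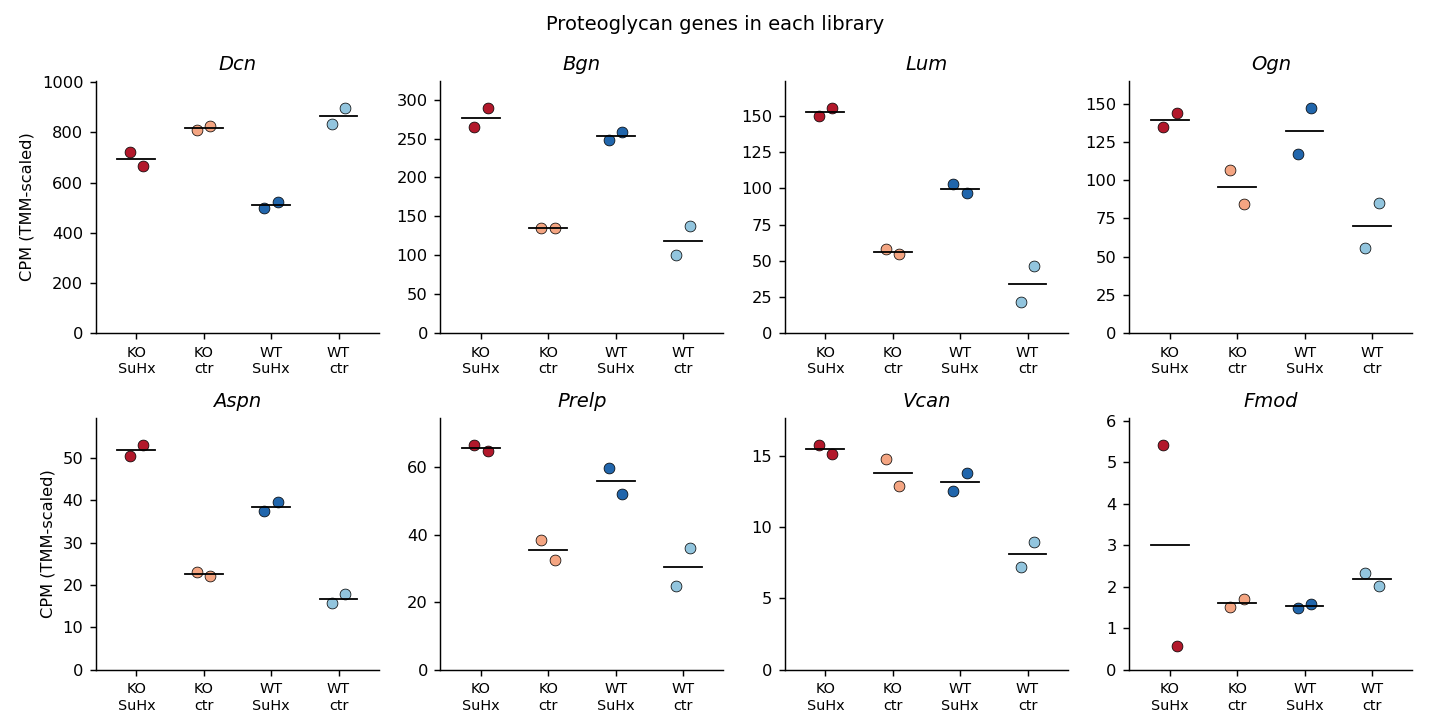
Level of each gene (vertical axis, CPM after TMM scaling, from 0) in each library, by group along the horizontal axis (KO, Fpr2-KO; ctr, control). Points are libraries and bars are means of 2 libraries. Dcn is lower in SuHx than in control libraries, Bgn, Lum, Ogn, Aspn and Prelp are higher without overlap of the 4 SuHx and 4 control libraries, and the Fmod point at 5.42 CPM is Fpr2-KO SuHx library 2.

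SuHx against control, averaged over both genotypes, asked which proteoglycan transcripts changed in the right ventricle with SuHx. Sugen and hypoxia were given together, so their effects cannot be told apart, and load on the ventricle is not given for these samples. Bgn, Lum, Aspn, Prelp, Ogn and Vcan rose, Dcn fell, and Fmod did not pass the test. The rises ranged from 1.35-fold for Vcan to 2.83-fold for Lum, and Dcn fell to 0.710 of its control level. With edgeR's quasi-likelihood test and Benjamini-Hochberg adjustment over all tested genes, 6 of 8 members were called higher, where 15.5% of all tested genes were, and 1 was called lower, where 14.1% were. Calls in either direction made up 29.6% of all tested genes. The median log2 fold change of the 8 genes was 0.81, against 0.01 over all tested genes. In 6 of 8 genes the 4 SuHx libraries did not overlap the 4 control libraries, which was so for 29.3% of all tested genes. In bulk tissue, fewer cells of a type and less RNA per cell cannot be told apart, so a level here is a level in the whole sample.

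Among the first class, Dcn was at 723 and 667 CPM in the Fpr2-KO SuHx libraries, against 810 and 823 CPM in Fpr2-KO control. In WT it was at 499 and 523 CPM in SuHx, against 832 and 897 CPM in control. Every SuHx library was below every control library, and the WT SuHx libraries were the lowest. Dcn fell by 0.50 ± 0.06 on the log2 scale (SE, edgeR adjusted p = 0.00103).

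Biglycan, a close relative of decorin whose soluble form can signal through the receptors TLR2 and TLR4, went the other way. Bgn was at 265 and 289 CPM in Fpr2-KO SuHx, against 135 and 135 CPM in Fpr2-KO control, and at 248 and 258 CPM in WT SuHx, against 100.001 and 138 CPM in WT control. All SuHx libraries were higher than all control libraries. The log2 fold change was 1.06 ± 0.10 (edgeR adjusted p = 0.000305).

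Asporin carries a run of aspartates in place of a glycosaminoglycan chain and binds collagen. Aspn was at 50.5 and 53.1 CPM in Fpr2-KO SuHx, against 23.1 and 22.1 CPM in Fpr2-KO control, and at 37.3 and 39.6 CPM in WT SuHx, against 15.7 and 17.9 CPM in WT control. The libraries of each group lay close together and the Fpr2-KO SuHx pair was highest. Its log2 fold change of 1.20 ± 0.08 had the smallest adjusted p among the 8 genes (edgeR, 9.7e-05).

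Of the second class, lumican binds collagen and is a keratan sulfate proteoglycan in cornea. Lum was at 150 and 156 CPM in Fpr2-KO SuHx, against 57.8 and 54.8 CPM in Fpr2-KO control, and at 103 and 96.6 CPM in WT SuHx, against 21.5 and 46.2 CPM in WT control. SuHx libraries were all higher, and the WT control libraries differed by more than the libraries of any other group. Lum had the largest rise of the 8, with a log2 fold change of 1.50 ± 0.22 (edgeR adjusted p = 0.00315).

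Prelp has a basic amino end that binds heparin and heparan sulfate. It was at 66.7 and 64.7 CPM in Fpr2-KO SuHx, against 38.4 and 32.6 CPM in Fpr2-KO control, and at 59.9 and 52.0 CPM in WT SuHx, against 24.8 and 36.0 CPM in WT control. Again no SuHx library overlapped a control library. Prelp rose by 0.88 ± 0.12 on the log2 scale (edgeR adjusted p = 0.00153).

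Fibromodulin, which binds collagen at a site shared with lumican, was scarce and uneven. Fmod was at 5.42 and 0.583 CPM in Fpr2-KO SuHx, against 1.51 and 1.71 CPM in Fpr2-KO control, and at 1.49 and 1.57 CPM in WT SuHx, against 2.34 and 2.02 CPM in WT control. The highest and the lowest library of all 8 were thus the 2 libraries of the Fpr2-KO SuHx group. The log2 fold change was 0.20 ± 0.57 (edgeR adjusted p = 0.83), and without Fpr2-KO SuHx library 2 it was -0.99 ± 0.26 (adjusted p = 0.0354). The high library is the one with atrial transcripts, in which Myl7, the atrial myosin light chain, was at 205 CPM, against 0 CPM in Fpr2-KO SuHx library 3. Bmp10, an atrial growth factor, was at 332 CPM in library 2 and 0.0542 CPM in library 3, and Comp, a matrix protein of tendon and cartilage, was at 16.1 CPM in library 2 and 2.43 CPM in library 3. The part of this tissue in the Fmod value was not tested.

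Osteoglycin, a proteoglycan of cornea and bone as well as heart, was at 135 and 144 CPM in Fpr2-KO SuHx, against 107 and 84.2 CPM in Fpr2-KO control, and at 117 and 147 CPM in WT SuHx, against 55.3 and 84.8 CPM in WT control. The groups did not overlap, although the highest control library came within 10.2 CPM of the lowest SuHx library. Ogn rose by 0.73 ± 0.15 on the log2 scale (edgeR adjusted p = 0.00832).

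Versican, like fibromodulin, had SuHx and control libraries that overlapped. Vcan was at 15.8 and 15.1 CPM in Fpr2-KO SuHx, against 14.8 and 12.9 CPM in Fpr2-KO control, and at 12.5 and 13.8 CPM in WT SuHx, against 7.18 and 8.97 CPM in WT control. The WT control libraries were lowest and both Fpr2-KO control libraries lay within the range of the SuHx libraries. The averaged log2 fold change was 0.43 ± 0.11 (edgeR adjusted p = 0.0206). This call was kept in 3 of the 8 fits that left out 1 library: it was lost without WT SuHx library 1 (adjusted p = 0.051), WT SuHx library 3 (0.082), Fpr2-KO control library 3 (0.0694), Fpr2-KO SuHx library 2 (0.0695) or Fpr2-KO SuHx library 3 (0.0509). The other 6 called genes were called in all 8 of these fits, with a highest adjusted p of 0.0384, that of Ogn.

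**Figure D2:**
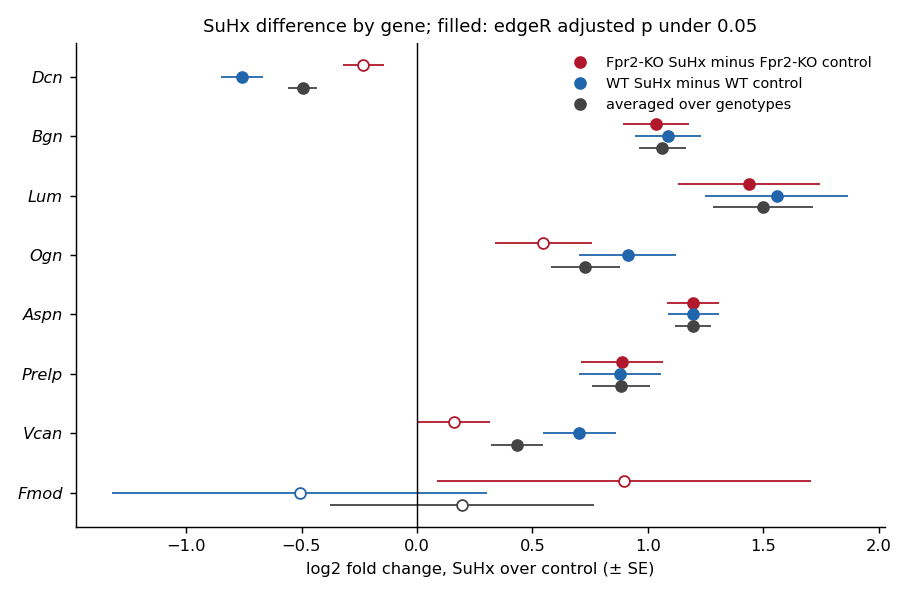
log2 fold change of SuHx over control for each gene in Fpr2-KO mice (red), in WT mice (blue) and averaged over genotypes (grey), with bars of 1 SE. Filled points have an edgeR adjusted p under 0.05. Dcn lies left of 0 in all 3, with the WT value at -0.76, and Vcan is filled in WT (0.70) and not in Fpr2-KO (0.16).

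Because Dcn fell while its relatives rose, the make-up of the proteoglycan transcripts shifted. Dcn made up 38.3% and 35.4% of the summed CPM per kb of the 8 genes in Fpr2-KO SuHx, against 56.0% and 59.2% in Fpr2-KO control. In WT it made up 34.5% and 34.3% in SuHx, against 69.9% and 62.2% in control. The share was thus lower in every SuHx library, and the control libraries differed more between genotypes than the SuHx libraries did. The ratio of Dcn to Bgn in CPM per kb was 2.85 and 2.41 in Fpr2-KO SuHx, against 6.27 and 6.36 in Fpr2-KO control, and 2.102 and 2.117 in WT SuHx, against 8.69 and 6.79 in WT control. Lum made up 18.9% and 19.7% in Fpr2-KO SuHx, against 9.52% and 9.40% in Fpr2-KO control, and 17.0% and 15.1% in WT SuHx, against 4.31% and 7.65% in WT control. These shares are a description with no test.

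**Figure D3:**
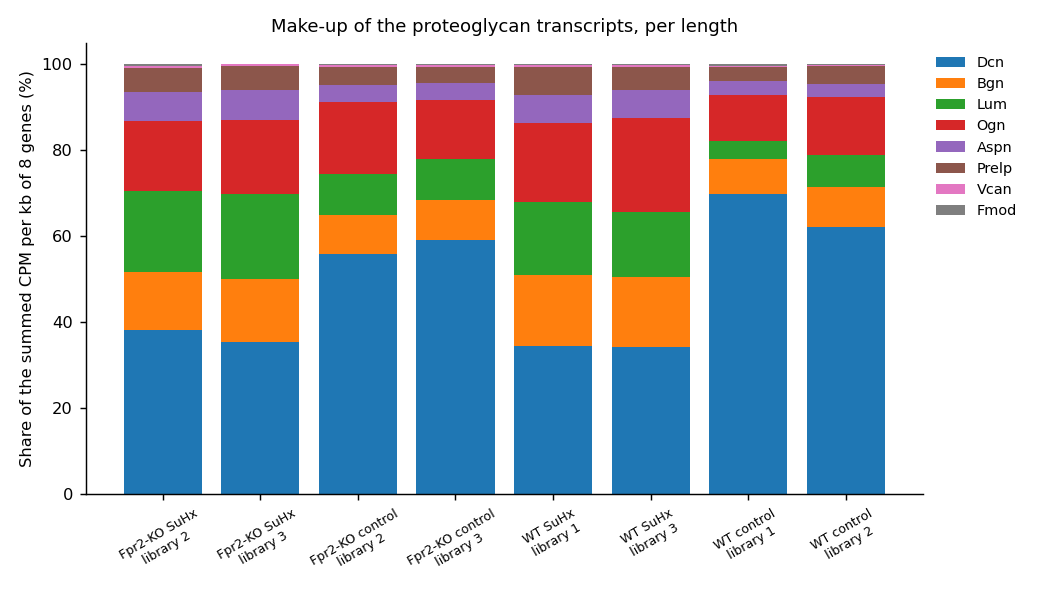
Share (%) of each gene in the summed CPM per kb of the 8 genes, with 1 stacked bar per library. Dcn, at the bottom, takes 34.3% to 38.3% in the 4 SuHx libraries and 56.0% to 69.9% in the 4 control libraries, and the bands of Bgn and Lum are wider in SuHx libraries.

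Within Fpr2-KO mice, Bgn, Lum, Aspn and Prelp rose with SuHx. This made 4 of 8 called higher, where 4.93% of all tested genes were, and 0 of 8 called lower, where 5.75% were, with 10.7% called in either direction. Over all tested genes this was 941 called higher and 1097 lower, and with library totals as the only scaling 1208 higher and 718 lower. The log2 fold changes were 1.04 ± 0.14 for Bgn (edgeR adjusted p = 0.0064), 1.44 ± 0.31 for Lum (0.0325), 1.20 ± 0.11 for Aspn (0.00212) and 0.89 ± 0.18 for Prelp (0.0199). Dcn, at -0.23 ± 0.09 (adjusted p = 0.14), Ogn, at 0.55 ± 0.21 (0.138), Vcan, at 0.16 ± 0.16 (0.565), and Fmod, at 0.90 ± 0.81 (0.536), did not pass. Lum lost its call in 6 of the 8 fits that left out 1 library: those omitting Fpr2-KO SuHx library 2 (adjusted p = 0.147) or 3 (0.123), Fpr2-KO control library 2 (0.128) or 3 (0.186), or WT SuHx library 1 (0.0694) or 3 (0.07). Prelp lost its call in the fits omitting Fpr2-KO SuHx library 2 (0.11) or 3 (0.0746) or Fpr2-KO control library 2 (0.051) or 3 (0.133). Bgn lost it without Fpr2-KO control library 3 (0.0515), and Aspn kept it in all 8.

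Ogn passed in Fpr2-KO mice when WT control library 1 (adjusted p = 0.0409) or 2 (0.0364) was left out. Fmod was 1.77 ± 0.32 without Fpr2-KO SuHx library 3 (adjusted p = 0.0372) and -1.47 ± 0.42 without Fpr2-KO SuHx library 2 (0.135), so its direction rests on which of these libraries is kept.

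Within WT mice, the same 4 genes rose, Ogn and Vcan rose as well, and Dcn fell. This made 6 of 8 called higher, where 10.9% of all tested genes were, and 1 called lower, where 9.63% were, with 20.5% called in either direction. The log2 fold changes were 1.09 ± 0.14 for Bgn (edgeR adjusted p = 0.00197), 1.56 ± 0.31 for Lum (0.0147), 1.20 ± 0.11 for Aspn (0.000653), 0.88 ± 0.18 for Prelp (0.0106), 0.91 ± 0.21 for Ogn (0.0195) and 0.70 ± 0.16 for Vcan (0.0168). Dcn fell by 0.76 ± 0.09 (adjusted p = 0.00146), and Fmod was at -0.51 ± 0.81 (0.708). Dcn, Bgn and Aspn kept their calls in all 8 fits that left out 1 library. Lum lost it without WT SuHx library 1 (adjusted p = 0.0803) or 3 (0.0687), and Prelp without WT SuHx library 1 (0.0754). Ogn lost it without WT SuHx library 3 (0.118) or WT control library 1 (0.0562). Vcan lost it without WT SuHx library 1 (0.0669) or 3 (0.109) or WT control library 1 (0.0633).

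Whether SuHx acted differently on these genes in the 2 genotypes was tested by the interaction, the SuHx log2 fold change in Fpr2-KO minus that in WT. With edgeR 0 of 8 members passed, and 0.0% of all tested genes did, although 2417 genes, 2 of them members, had an unadjusted p under 0.05. DESeq2 called 584 genes, 1 of them a member. That gene was Dcn, whose interaction was 0.53 ± 0.13 with edgeR (unadjusted p = 0.00291, adjusted p = 0.184) and 0.52 ± 0.15 with DESeq2 (adjusted p = 0.0178). Over the 16 alternatives its edgeR or DESeq2 adjusted p ranged from 0.0178 to 0.51, and the difference stayed positive, from 0.46 to 0.62. Dcn was therefore called in WT and not in Fpr2-KO, while the difference between them passed the threshold with DESeq2 alone among the fits run. Vcan had an interaction of -0.54 ± 0.22 (edgeR unadjusted p = 0.0391, adjusted p = 0.371). For Aspn the interaction was -0.00 ± 0.15, for Prelp 0.01 ± 0.25 and for Bgn -0.05 ± 0.20 (edgeR adjusted p = 1, 0.999 and 0.95). For Lum it was -0.12 ± 0.43, for Ogn -0.37 ± 0.30 and for Fmod 1.41 ± 1.15 (adjusted p = 0.948, 0.663 and 0.668). The Lum interaction passed without WT control library 2 (-0.77 ± 0.14, edgeR adjusted p = 0.0276) and was positive without WT control library 1 (0.33 ± 0.14, 0.481). The Fmod interaction was negative without Fpr2-KO SuHx library 2 (-0.96 ± 0.51, 0.699).

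Fpr2-KO against WT under SuHx asked whether loss of Fpr2 went with another proteoglycan level in the right ventricle of SuHx mice. With edgeR 0 of 8 members passed and 0.0% of all tested genes did, while 664 genes, 2 of them members, had an unadjusted p under 0.05 and DESeq2 called 23 genes. Dcn was at 723 and 667 CPM in Fpr2-KO SuHx, against 499 and 523 CPM in WT SuHx, so the groups did not overlap. Its log2 difference was 0.44 ± 0.09 (edgeR unadjusted p = 0.000971, adjusted p = 1, DESeq2 adjusted p = 0.0283), and the adjusted p over the other alternatives ranged up to 1. Aspn, at 50.5 and 53.1 CPM in Fpr2-KO SuHx and 37.3 and 39.6 CPM in WT SuHx, differed by 0.43 ± 0.11 (edgeR unadjusted p = 0.00391, adjusted p = 1). Lum, at 150 and 156 CPM in Fpr2-KO SuHx and 103 and 96.6 CPM in WT SuHx, differed by 0.61 ± 0.30 (edgeR adjusted p = 1). The remaining differences were 0.13 ± 0.14 for Bgn, 0.08 ± 0.21 for Ogn, 0.23 ± 0.17 for Prelp, 0.23 ± 0.16 for Vcan and 0.97 ± 0.81 for Fmod (edgeR adjusted p = 1 for each).

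In control mice, Vcan was higher in Fpr2-KO than in WT. This made 1 of 8 members called higher, where 1.43% of all tested genes were, and 0 of 8 called lower, where 1.18% were, with 2.6% called in either direction. Vcan was at 14.8 and 12.9 CPM in Fpr2-KO control, against 7.18 and 8.97 CPM in WT control, a log2 difference of 0.77 ± 0.16 (edgeR adjusted p = 0.0432). The call was lost in 7 of the 8 fits that left out 1 library, with adjusted p up to 0.151, and was kept only without WT control library 2 (0.0113). Over these 8 fits the log2 difference ranged from 0.29 to 1.40 for Lum, 0.17 to 0.80 for Ogn and 0.34 to 0.54 for Aspn. It ranged from -0.029 to 0.45 for Bgn, -0.021 to 0.53 for Prelp, -0.1339 to -0.0155 for Dcn and -0.53 to -0.33 for Fmod. With all libraries Aspn differed by 0.43 ± 0.11 (edgeR adjusted p = 0.0775), Lum by 0.73 ± 0.30 (0.234), Ogn by 0.45 ± 0.21 (0.276), Bgn by 0.18 ± 0.14 (0.526), Prelp by 0.22 ± 0.18 (0.533), Dcn by -0.08 ± 0.09 (0.677) and Fmod by -0.44 ± 0.81 (0.83). DESeq2 called Vcan (adjusted p = 0.00114), Aspn (0.0169) and Lum (0.0461) higher in Fpr2-KO. Over all genes DESeq2 called 1010 higher and 934 lower in this comparison, many more than edgeR.

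Averaged over treatments, Aspn was higher in Fpr2-KO than in WT by 0.43 ± 0.08 (edgeR adjusted p = 0.129), Vcan by 0.50 ± 0.11 (0.136), Lum by 0.67 ± 0.21 (0.248) and Dcn by 0.18 ± 0.06 (0.266), so 0 of 8 passed. The share over all tested genes was 0.0%, with 2741 genes, 4 of them members, at an unadjusted p under 0.05. DESeq2 called 687 genes, among them Aspn (adjusted p = 0.000845), Vcan (0.00819) and Lum (0.0142). The median log2 difference of the 8 genes was 0.26, against -0.00 over all tested genes. Lum, Vcan and Aspn were higher in every Fpr2-KO library than in every WT library within each treatment, with 2 libraries on each side. This was so for 3 of 8 members and for 4.4% of all tested genes.

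**Figure D4:**
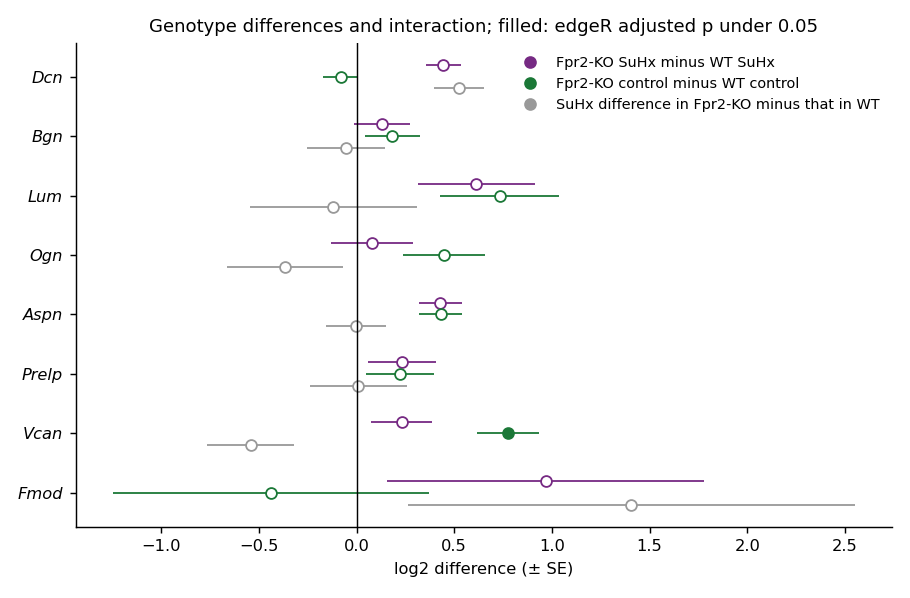
log2 difference between Fpr2-KO and WT for each gene under SuHx (purple) and in control mice (green), and the interaction, which is the SuHx log2 fold change in Fpr2-KO minus that in WT (grey), with bars of 1 SE. Filled points have an edgeR adjusted p under 0.05: the only filled point is Vcan in control mice, at 0.77.

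Across the 8 libraries the Pearson correlation of log2 CPM between members ranged over 28 pairs from -0.76, for Dcn with Bgn, to 0.98, for Lum with Prelp, with a median of 0.74. Bgn, Lum, Ogn, Prelp and Aspn correlated with each other at 0.91 to 0.98. These points share the 4 groups, so the coefficients largely carry the group means and are a description. After the group means were removed, Dcn correlated positively with each of the other 7, at 0.40 with Prelp to 0.66 with Vcan, over 4 pairs of libraries. The coefficient with Fmod, 0.63, leans on the Fpr2-KO SuHx pair, in which Fmod was at 5.42 CPM in library 2 and 0.583 CPM in library 3. Over all 8 libraries Dcn correlated negatively with 6 of the other genes and positively with Fmod (0.25).

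By the same measure over 8 libraries, and among 10324 other tested genes that averaged at least 5 CPM, each member has its nearest neighbours. The gene most like Dcn was Vwa5a (r = 0.98), followed by Gm16332 (0.97) and Gm10709 (0.96). Bgn was most like Higd1a, Ifngr2 and Ethe1 (r = 0.99 or above), and Aspn like Tnfrsf21, Pih1d1 and Gpx8. Lum was closest to Adamts10, followed by Atat1 and Cd53, and Prelp to H2aw, Pxylp1 and Parp11. Ogn was closest to Lyz2, a lysozyme of macrophages (r = 0.99), Ctss and Fam131a. Vcan was closest to Sulf2, an enzyme that removes sulfate from heparan sulfate (r = 0.98), Pmp22 and Pkn3. Fmod was most like Fam185a (r = 0.94), Sbk2 and Lrpap1. With so many candidates and 8 points, high coefficients are common and no test was made.

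Several of these genes lie near each other (positions in mm10, from the deposited table). Dcn, at chr10:97479609-97518143, and Lum, at chr10:97565128-97572703, are both on the plus strand with a gap of 47.0 kb. Dcn fell and Lum rose under SuHx, so these neighbours went in opposite directions. The next small leucine-rich genes on that side, Kera and Epyc, had 0 to 4 and 0 to 54 counts and were not tested. Aspn, at chr13:49544443-49567565, and Ogn, at chr13:49608046-49624501, are on the plus strand with a gap of 40.5 kb, and both rose. Ecm2, a leucine-rich relative just before Aspn, also rose, by 0.86 ± 0.08 on the log2 scale (edgeR adjusted p = 0.000326). Omd, osteomodulin, which lies between Aspn and Ogn, fell in WT by 1.67 ± 0.42 (adjusted p = 0.0259) and was at 0.22 ± 0.41 in Fpr2-KO (0.786). Prelp, at chr1:133910304-133921414 on the minus strand, and Fmod, at chr1:134037254-134048277 on the plus strand, are 115.8 kb apart. Prelp was called and Fmod was not. Bgn lies at chrX:73483602-73495933 on the plus strand, and Vcan at chr13:89655312-89742509 on the minus strand.

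Cenpp, a centromere protein gene on the opposite strand with 95 to 147 counts per library, spans Aspn and Ogn. In the GENCODE annotation it shares 7 exonic bases with Aspn and 0 with Ogn. The antisense gene Gm4117, with 0 to 22 counts, overlaps Vcan and shares 0 exonic bases with it. The strand setting of the counting is not given in the sources used here, so reads of these overlapping genes could not be assigned with certainty. The members had 1018 or more counts in every library for Aspn and 466 or more for Vcan.

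The other genes of the pathway are described by lists, for SuHx against control averaged over genotypes and with edgeR's adjusted p. Their counts stand against 15.5% of all tested genes called higher and 14.1% called lower, and no list was tested as a list. Counts within Fpr2-KO mice stand against 4.93% called higher and 5.75% called lower. Those within WT mice stand against 10.9% called higher and 9.63% called lower. Of the fibrillar and associated collagens to which these proteoglycans bind, 8 of 12 tested genes rose, with a median log2 fold change of 1.10. Col6a2 rose by 1.64 ± 0.15 (adjusted p = 0.000347), Col6a1 by 1.36 ± 0.15 (0.000664), Col5a1 by 0.97 ± 0.12 (0.000757) and Col1a2 by 1.08 ± 0.14 (0.000968). Col6a1 and Col6a2 encode chains of type VI collagen, the microfibrillar collagen that biglycan and decorin bind. Col6a2 was at 84.4 and 104 CPM in Fpr2-KO SuHx, against 33.4 and 39.0 CPM in Fpr2-KO control, and at 100.3 and 89.5 CPM in WT SuHx, against 19.6 and 31.6 CPM in WT control. Collagens were called in both genotypes, 6 of 12 in Fpr2-KO and 8 of 12 in WT.

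Of the other small leucine-rich proteoglycans, 2 of 7 tested genes rose, Ecm2 and Podn, which encodes podocan, by 0.73 ± 0.18 (adjusted p = 0.0192). The median of that list was 0.44. Podn lost its call without WT control library 1 (0.0549), WT SuHx library 3 (0.0659) or Fpr2-KO control library 2 (0.0729) or 3 (0.0624). Among the other large and basement membrane proteoglycans 3 of 7 rose and 2 fell, with a median of 0.55. Srgn, serglycin of blood cell granules, rose by 0.66 ± 0.09 (adjusted p = 0.00136), Hspg2, perlecan, by 0.55 ± 0.09 (0.00331) and Col18a1 by 0.98 ± 0.18 (0.0047). Within Fpr2-KO mice 0 of these 7 rose and 1 fell, where 4.93% and 5.75% of all tested genes did. Within WT mice 3 rose and 2 fell, where 10.9% and 9.63% of all tested genes did. Hspg2 was at 0.04 ± 0.13 in Fpr2-KO (adjusted p = 0.899) and 1.06 ± 0.13 in WT (0.00162), an interaction of -1.02 ± 0.18 that did not pass (0.118). Spock2, testican-2, fell by 2.28 ± 0.22 (0.000426). It was at 6.32 and 5.53 CPM in Fpr2-KO SuHx, against 17.6 and 13.5 CPM in Fpr2-KO control, and at 4.22 and 5.11 CPM in WT SuHx, against 56.1 and 27.9 CPM in WT control. Of the cell surface proteoglycans 5 of 13 rose and 1 fell, with a median of 0.31. The syndecan Sdc3 rose by 0.92 ± 0.08 (adjusted p = 0.000235), Cspg4, the pericyte proteoglycan NG2, by 0.69 ± 0.09 (0.00132) and the glypican Gpc1 by 0.48 ± 0.07 (0.00171), while Gpc4 fell by 0.66 ± 0.12 (0.00538). Within Fpr2-KO mice 2 of the 13 rose, and within WT mice 4 rose and 1 fell.

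Versican and other large proteoglycans are cut by ADAMTS proteases. Of the 7 tested enzymes of this kind 4 fell, with a median of -0.54. Adamts4 fell by 2.098 ± 0.34 (adjusted p = 0.00274), Adamts15 by 1.28 ± 0.30 (0.0165), Adamts5 by 0.55 ± 0.14 (0.0203) and Adamts1 by 0.97 ± 0.27 (0.0362). Adamts1 was at 29.6 and 22.2 CPM in Fpr2-KO SuHx, against 36.3 and 43.5 CPM in Fpr2-KO control, and at 14.5 and 32.8 CPM in WT SuHx, against 49.6 and 68.1 CPM in WT control. Adamts4 was scarce, at 0.109 to 1.41 CPM. It kept its call in all 8 fits that left out 1 library, while Adamts15 lost it without WT SuHx library 3 (0.0635), Fpr2-KO control library 3 (0.0551) or Fpr2-KO SuHx library 2 (0.0697). Adamts5 lost it without WT SuHx library 1 (0.0621) or 3 (0.0666), Fpr2-KO control library 2 (0.0698) or Fpr2-KO SuHx library 3 (0.0778). Adamts1 kept it without WT SuHx library 1 or 3 and lost it in the other 6 fits, with adjusted p up to 0.128. Within each genotype 1 of the 7 fell, against 5.75% of all tested genes in Fpr2-KO and 9.63% in WT.

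Of the hyaluronan genes 3 of 14 rose, where 15.5% of all tested genes did, with a median of -0.06. Itih5, a heavy chain that attaches to hyaluronan, rose by 1.41 ± 0.15 (adjusted p = 0.000426), the synthase Has3 by 1.55 ± 0.46 (0.0362) and Hmmr, a hyaluronan-binding protein of dividing cells, by 4.42 ± 0.89 (0.00745). Hmmr was scarce, at 0 to 0.144 CPM in control libraries and 0.720 to 1.52 CPM in SuHx libraries. The size of its change is therefore poorly known, and it ranged from 3.94 to 7.12 over the alternatives. Has3 lost its call in 5 of the 8 fits that left out 1 library: without WT control library 1 (0.084), WT SuHx library 1 (0.123), Fpr2-KO control library 3 (0.091) or Fpr2-KO SuHx library 2 (0.0913) or 3 (0.0881). In control mice, the hyaluronan receptor Cd44 was higher in Fpr2-KO than in WT, at 16.2 and 23.1 CPM in Fpr2-KO control, against 8.18 and 7.73 CPM in WT control, a log2 difference of 1.30 ± 0.18 (edgeR adjusted p = 0.021). The hyaluronidase Hyal2 differed in the same direction by 0.75 ± 0.16 (0.045). The Cd44 call was lost without WT control library 1 (0.051), Fpr2-KO control library 2 (0.0609) or Fpr2-KO control library 3 (0.0991). Hyal2 lost its call in 7 of the 8 fits that left out 1 library, with adjusted p up to 0.198, and kept it without WT control library 2. With only the 2 compared groups in the fit, neither passed (0.106 for Cd44 and 0.156 for Hyal2).

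Among enzymes that build the sugar chains, 9 of 26 for the linker and for chondroitin or dermatan sulfate rose and 1 fell, with a median of 0.27. The sulfotransferases Chst15 (1.01 ± 0.16, adjusted p = 0.00246), Chst14 (0.81 ± 0.15, 0.00511) and Chst7 (1.05 ± 0.20, 0.00536) and the sulfate donor synthase Papss1 (0.59 ± 0.11, 0.00511) were among those that rose. For keratan sulfate 2 of 7 rose, with a median of 0.57. These were Fut8, at 0.57 ± 0.09 (adjusted p = 0.00267), and B4galt4, at 0.60 ± 0.14 (0.0153), which lost its call without WT SuHx library 3 (0.0558) or Fpr2-KO SuHx library 2 (0.0631).

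Of the growth factors and receptors that decorin or biglycan bind, 2 of 13 rose and 6 fell, with a median of -0.26. Over all tested genes 15.5% rose and 14.1% fell. Tlr2 rose by 0.82 ± 0.19 (adjusted p = 0.0137), while Tlr4 fell by 0.81 ± 0.10 (0.00102), so the receptors through which biglycan can signal went in opposite directions. Igf1r fell by 0.79 ± 0.10 (0.000786), and Kdr, the VEGF receptor that Sugen blocks, rose by 0.43 ± 0.10 (0.0127). Kdr was at -0.21 ± 0.14 in Fpr2-KO (adjusted p = 0.391) and 1.08 ± 0.14 in WT (0.00204), an interaction of -1.28 ± 0.20 that did not pass (0.117). Tlr2 lost its call without Fpr2-KO SuHx library 2 (0.057). Within Fpr2-KO mice 0 of the 13 rose and 1 fell, where 4.93% and 5.75% of all tested genes did. Within WT mice 2 rose and 3 fell, where 10.9% and 9.63% of all tested genes did. In control mice Egfr, a receptor bound by decorin, was lower in Fpr2-KO than in WT, at 6.33 and 6.03 CPM in Fpr2-KO control, against 13.8 and 10.3 CPM in WT control, a log2 difference of -0.96 ± 0.20 (edgeR adjusted p = 0.0476). That call was lost with only these groups in the fit (0.148) and in 7 of the 8 fits that left out 1 library, with adjusted p up to 0.2, and was kept without WT control library 2.

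**Figure D5:**
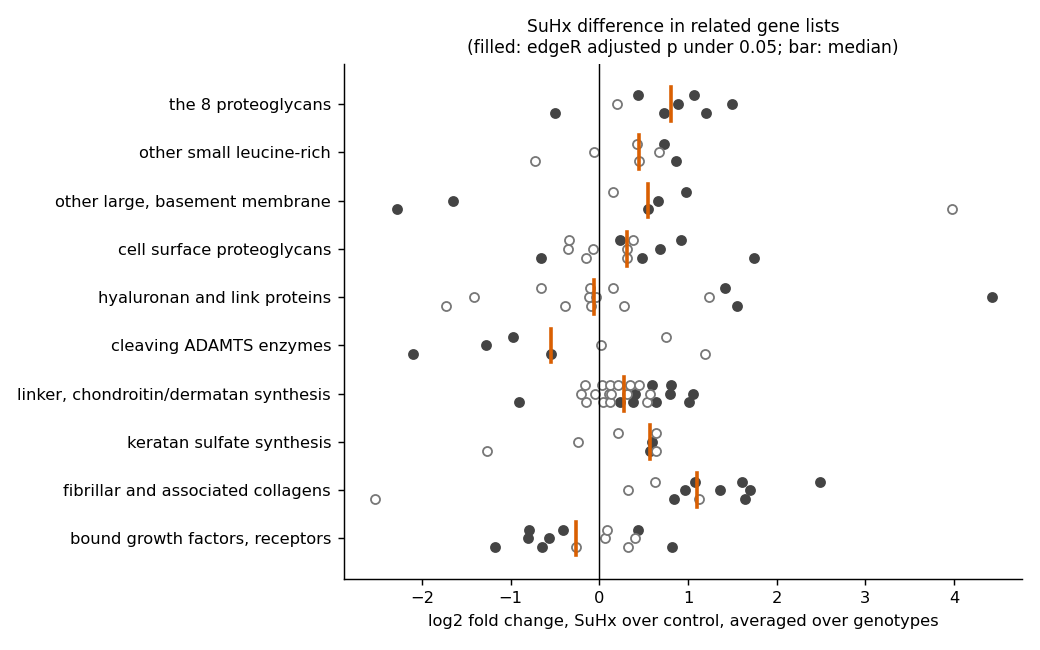
log2 fold change of SuHx over control, averaged over genotypes, for each tested gene (points) of the 8 proteoglycans and of 9 related lists (rows), with orange bars at list medians. Filled points have an edgeR adjusted p under 0.05. The collagen row has the highest median, 1.10, and the row of cleaving ADAMTS enzymes the lowest, -0.54.

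Markers of fibroblasts and of other cell types of the heart were also compared between SuHx and control. Counts in all marker lists are for the averaged comparison and stand against 15.5% of all tested genes called higher and 14.1% called lower. Of 12 fibroblast markers 5 rose and 1 fell, and the one that fell was Pdgfra, a defining marker, by 0.47 ± 0.09 (edgeR adjusted p = 0.00673). Their summed level was 2358 to 2561 CPM in Fpr2-KO SuHx, against 1966 to 2301 CPM in Fpr2-KO control, and 1991 to 2057 CPM in WT SuHx, against 1936 to 2502 CPM in WT control. Gsn, gelsolin, which other cells also express, made up 68.7% to 82.2% of these sums. Without it the other 11 markers added up to 678 and 720 CPM in Fpr2-KO SuHx, against 546 and 433 CPM in Fpr2-KO control, and to 643 and 612 CPM in WT SuHx, against 360 and 445 CPM in WT control. The full sums overlapped in WT and not in Fpr2-KO, and the sums without Gsn overlapped in neither. Of 10 markers of activated fibroblasts 7 rose, among them Postn, periostin, by 2.36 ± 0.15 (adjusted p = 9.75e-05). Their sum was 206 to 284 CPM in Fpr2-KO SuHx, against 84.0 to 92.9 CPM in Fpr2-KO control. In WT it was 182 to 192 CPM in SuHx, against 59.6 to 81.3 CPM in control. The 284 CPM was in Fpr2-KO SuHx library 2, which stands apart by its atrial transcripts.

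Of 10 macrophage and monocyte markers 8 rose, with sums of 423 to 429 CPM in Fpr2-KO SuHx, against 239 to 322 CPM in Fpr2-KO control, and 358 to 439 CPM in WT SuHx, against 169 to 245 CPM in WT control. Of 10 endothelial markers 5 rose, with sums of 991 to 1197 CPM in Fpr2-KO SuHx, against 913 to 959 CPM in Fpr2-KO control, and 1165 to 1286 CPM in WT SuHx, against 849 to 905 CPM in WT control. Of 11 smooth muscle and pericyte markers 4 rose and 1 fell. Of 10 tested markers of valve, tendon and cartilage 2 fell, Scx and Prg4, with sums of 33.2 to 55.8 CPM in Fpr2-KO SuHx, against 41.7 to 44.4 CPM in Fpr2-KO control, and 27.9 to 41.2 CPM in WT SuHx, against 65.7 to 66.7 CPM in WT control. In these valve, tendon and cartilage sums, 55.8 CPM was in Fpr2-KO SuHx library 2 and 33.2 CPM in Fpr2-KO SuHx library 3. Library 3 was thus below both Fpr2-KO control libraries. The endothelial sum of 1197 CPM was in Fpr2-KO SuHx library 2 as well. Of the remaining lists, 0 of 9 mesothelial and 0 of 8 atrial muscle markers passed. Among the rest, 1 of 6 endocardial, 1 of 5 adipocyte and 2 of 6 Schwann cell markers fell, and of 10 ventricular muscle markers 3 rose and 1 fell. Of the adipocyte markers Fabp4 was at 351 to 663 CPM, and every other one was at 2.23 CPM or less in every library. The part of these cell types in the proteoglycan values was not tested.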

How the data were processed

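The submitters' processing notes name cutadapt 1.9, HISAT2 2.2.1, StringTie 2.1.6, edgeR, DESeq2 and build mm10. What each did, how strand was set and which annotation was used are not stated in those notes. The deposited table holds whole-number counts per gene, which the authors made and did not normalize. Another 8 columns of per-sample values, FPKM, were not used, so genes were compared by CPM per kb of the annotated exons and not by the deposited FPKM as first designed. Per the labels' protocols, RNA had an integrity number above 7. Samples were grouped by title, and the genotype label of 3 Fpr2-KO samples names Fpr3, Fpr4 or Fpr5 instead.

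The counts went into edgeR 4.0.16 under R 4.3.3: filterByExpr by group kept 19083 genes and removed 11412, with TMM scaling and 1 robust quasi-likelihood fit of 4 group means (4 residual degrees of freedom, common coefficient of variation 25.1%). Tests were two-sided in 7 comparisons, and a gene was called at a Benjamini-Hochberg adjusted p under 0.05. Standard errors are those implied by the F statistic. Alternatives were DESeq2 1.42.0, other scalings and filters, a replicate block and libraries left out. The procedure was tested on simulated data.

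The 8 genes, the 9 pathway lists, the 12 marker lists and the alternatives were chosen with earlier results of these data known. All 8 genes are described. From each list, up to 4 called genes with the smallest adjusted p in the averaged SuHx comparison were named, plus those called in a genotype comparison, and for each gene the 3 nearest by Pearson r. Marker genes, Comp, Bmp10 and Myl7 were named after their values were seen, as were Omd and other neighbours by position. Promoters are from RefSeq, positions and lengths of exons from GENCODE M21.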

Additional observations from a re-analysis of the deposited data

How the results depend on the processing

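Under all 16 alternatives of the averaged SuHx comparison Dcn, Bgn, Lum, Ogn, Prelp and Aspn kept direction and call. Of 928 member values over all comparisons, 829 kept direction and side of the threshold, 42 lost the call, 20 gained it and 37 changed sign. Among those that changed sign, the one that passed the test in either fit was Fmod in the averaged SuHx comparison, at -0.99 without Fpr2-KO SuHx library 2 (range -0.99 to 0.63 over single libraries left out). Fmod ranged likewise from -1.47 to 1.77 for SuHx in Fpr2-KO, -1.39 to 1.84 for Fpr2-KO against WT under SuHx, -0.91 to 0.71 averaged over treatments and -0.96 to 2.27 in the interaction. Ranges that spanned 0 were -0.029 to 0.45 for Bgn and -0.021 to 0.53 for Prelp between genotypes in control mice, -0.080 to 0.255 for Ogn under SuHx, and, in the interaction, -0.30 to 0.16 for Bgn, -0.77 to 0.33 for Lum, -0.29 to 0.25 for Prelp and -0.099 to 0.087 for Aspn. The interaction also changed sign with library totals for Bgn (0.047) and Aspn (0.094), and for Aspn with a filter of 1 CPM (0.0072) or without mitochondrially coded genes (0.0033). Causes of these changes were not tested. Leaving out 1 library at a time gave 290 to 3051 called genes for SuHx in Fpr2-KO (2038 with all) and 1 to 5 members. For SuHx in WT it gave 1328 to 4289 genes (3919 with all) and 4 to 7 members, and averaged over genotypes 3498 to 5844 genes. Fpr2-KO against WT gave 0 to 2370 genes and 0 to 5 members in control mice, 0 to 5 genes under SuHx, and 0 to 1189 genes and 0 to 4 members averaged. The interaction gave 0 to 756 genes and 0 to 1 members. DESeq2 called 3241 genes for SuHx in Fpr2-KO; for Fpr2-KO against WT it called 1944 genes and 3 members in control mice, 23 and 1 under SuHx, 687 and 3 averaged, and 584 and 1 in the interaction. With only the compared groups in the fit, 4 members were called for SuHx in WT. Of the 3919 genes called there with all groups, 2551 were called again. For genotype, a fit of only the compared groups called 0 genes and 0 members in control mice and 2 genes under SuHx. That fit could not be made for the averaged comparisons and the interaction. With a replicate block by column number, 1164 genes were called for SuHx in Fpr2-KO, 9 genes and 0 members for genotype in control mice, 1 gene under SuHx and 2 averaged. Signs changed under this block for Fmod in SuHx against control in WT (0.022), for Bgn (-0.0094) and Ogn (-0.18) in Fpr2-KO against WT under SuHx and for Prelp in the interaction (-0.13). Nothing in the labels says that a number pairs samples. Deviations from group means of Fpr2-KO control library 2 and Fpr2-KO SuHx library 2 correlated at 0.001 over 19083 genes. With 2 libraries a group and no WT library in it, that coefficient cannot show whether numbers mark pairs. Leaving out both Fpr2-KO SuHx library 2 and WT control library 1, 2233 genes were called for SuHx in WT, 937 for SuHx in Fpr2-KO, 43 genes and 0 members for genotype in control mice, 3 genes under SuHx, 2 in the interaction and 5 averaged. Without these libraries Fmod was -1.47 for SuHx in Fpr2-KO, -0.93 for SuHx averaged, -1.39 for genotype under SuHx, -0.85 for genotype averaged and -1.07 in the interaction, where Bgn was 0.21, Lum 0.35 and Aspn 0.12, and Bgn (-0.020) and Prelp (-0.013) changed sign between genotypes in control mice. With library totals as the only scaling, 254 genes were called higher and 245 lower for genotype in control mice, with 0 members among them. Averaged over treatments, 1 gene was called for genotype under that scaling. With no low-count filter 12 genes were called in the interaction and 13 for genotype averaged, and with a filter of 1 CPM 1 gene for genotype averaged. Levels on the deposited FPKM scale were not run; 2 other scales were chosen after seeing the data. In CPM of the library totals, log2 of the Fpr2-KO SuHx over the Fpr2-KO control mean was -0.13 for Dcn (-0.23 with TMM), 1.13 for Bgn (1.04), 1.54 for Lum (1.44) and 1.29 for Aspn (1.20). Per kb of the longest transcript Dcn made up 33.0% of the 8 genes in WT SuHx (34.4% per kb of all exons). With 2 libraries a group, a fit of 4 group means to all 8 libraries rests on 4 residual degrees of freedom. Fits with libraries left out, with only the compared groups or with a replicate block rest on fewer.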
